A study of Arabidopsis thaliana with 12 samples.

Results

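Seedlings of the arf2-6 mutant and of the wild type were compared after both had received the auxin indole-3-acetic acid (IAA). The comparison used 6 of the 12 arrays of the series, 3 of arf2-6 with IAA (arf2-6_IAA) against 3 of wild type with IAA (WT_IAA). A probe set, the group of oligonucleotides on the array that measures 1 transcript, was described when its deposited signal lay above the lowest deposited value on at least 3 of these 6 arrays. This held for 13130 of the 22810 probe sets, with 64 control probe sets of the array left out. The arf2-6_control and WT_control groups, 3 arrays each of the same genotypes given ethanol in place of IAA, entered the estimate of the spread and are set beside the results.

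The RNA was total RNA from whole Arabidopsis thaliana seedlings of the Columbia wild type or of arf2-6, a mutant line named for the auxin response factor gene ARF2. The labels give 1 mutant allele and no second line, and they do not describe its lesion. Every group was grown for 7 days in gently shaken liquid Murashige and Skoog medium with 1.5% sucrose, with 16 h light and 8 h dark cycles. The IAA groups then stood in 5 µM IAA for 2 h at 24 °C. The labels do not say whether replicates came from different cultures. A p-value here reflects the scatter among these samples, possibly technical only, and 3 arrays a group limit the precision.

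Auxin releases auxin response factors, the transcription factors that bind auxin response elements in promoters, from Aux/IAA repressor proteins. ARF2 belongs to the class of these factors that represses transcription, and mutants of it are known for large seeds and organs, delayed leaf senescence and delayed floral organ shedding. Early auxin-induced genes include the GH3 enzymes, which join IAA to amino acids, the Aux/IAA repressors themselves and the LBD factors that start lateral roots.

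The 6 arrays were alike in overall signal. On each array 12914 to 13039 probe sets exceeded the lowest value, and the array medians ran from 6.16 to 6.21 on the log2 scale. Pearson correlations across the 13130 probe sets ran from 0.982 to 0.988 within WT_IAA, from 0.989 to 0.992 within arf2-6_IAA and from 0.953 to 0.979 between the genotypes. Probe sets are not independent replicates, and these values describe the arrays only. The 3′ minus 5′ signal of the control transcripts, a measure of RNA length, was 0.55, 0.51 and 0.62 in WT_IAA and 0.49, 0.46 and 0.42 in arf2-6_IAA. All 3 mutant arrays thus lay below all 3 wild-type arrays (mean difference -0.10, two-sided exact permutation test p = 0.10, the smallest that 3 against 3 allows), and its part in the results below was not tested. In the control groups, WT_control replicate 3 and arf2-6_control replicate 2 stood apart from their groups. Leaving both out changed the number of calls in 12 of the 36 gene lists, and where a list described below is 1 of the 12 its count without them is given.

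No probe set was listed with ARF2 (AT5G62000), so the mutation could not be checked from its transcript. The largest difference of all belonged to a probe set listed with no gene, 247468_at. It read 8.80, 8.63 and 8.41 in WT_IAA and sat at the lowest deposited value throughout arf2-6_IAA. Its signal was therefore at least 7.84-fold lower in arf2-6. On the control arrays it read 8.44, 7.95 and 7.80 in WT and was at the lowest value in arf2-6 again. The lowest deposited value, 5.64 on the log2 scale or a signal of 50, is only an upper limit on the true signal. Where any array of the lower group sat there, the fold is the least it can be, and the text says at least. A probe set at the lowest value on all 3 arrays of 1 genotype was described because of the other genotype alone and had to differ, so its values are a description and no p is given for them. The second largest fall, of 266353_at, also listed with no gene, was measured on every array. It read 10.48, 10.59 and 10.15 in WT_IAA and 6.73, 7.91 and 8.52 in arf2-6_IAA, 6.45-fold lower (limma adjusted p = 0.0043), and the mutant arrays, though spread widely, all lay below the wild type.

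Between the genotypes, more probe sets were lower in arf2-6 than higher. At an adjusted p under 0.05 (limma, two-sided, Benjamini-Hochberg over all 13130), 1325 probe sets differed, 10.1% of those tested. Of these, 869 were lower in arf2-6 (6.62%) and 456 were higher (3.47%). The 869 include 51, and the 456 include 15, described because of 1 genotype alone, which had to differ. Without such probe sets, 818 of 12939 were lower (6.32%) and 441 were higher (3.41%). The counts that follow keep them. The median difference was -0.63 among the 869 lower and 0.58 among the 456 higher, against 0.01 over all probe sets tested. The median SE was 0.14. Most differences were modest: 131 of the lower and 31 of the higher reached 2-fold, 6 and 1 reached 4-fold, and 361 and 233 stayed under 1.5-fold. All 3 arrays of 1 genotype lay beyond all 3 of the other for 862 of the 869 and for 455 of the 456, and this separation also held for 39.4% of all probe sets tested (20.1% lower and 19.3% higher).

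**Figure D1:**
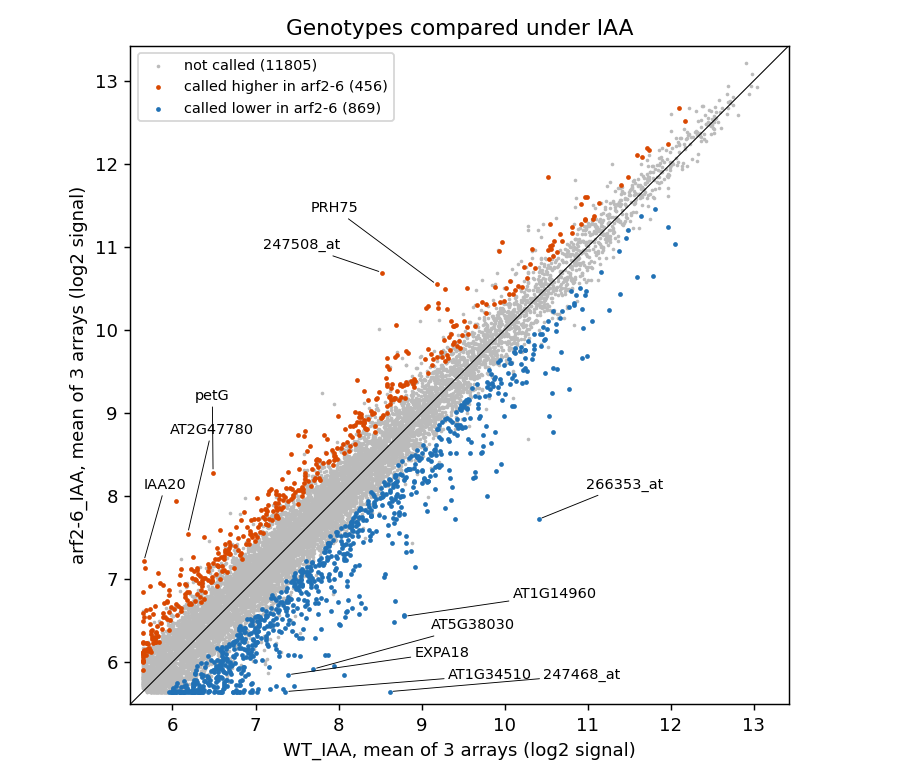
Mean log2 signal of each of the 13130 probe sets in WT_IAA (horizontal, 3 arrays) and in arf2-6_IAA (vertical, 3 arrays), with the line of equal signal. The 869 probe sets called lower (blue) lie below the line and the 456 called higher (orange) above it. Of the lower ones, 51 sit on the lowest value, 5.64, in arf2-6_IAA.

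The number of calls depended on which arrays estimated the spread. The 6 IAA-treated arrays alone gave 2518 calls (1129 higher and 1389 lower), and leaving out the 2 control arrays that stood apart gave 2449 (1086 and 1363). Leaving out 1 IAA-treated array lowered the count to 379 without WT_IAA replicate 2, 449 without arf2-6_IAA replicate 3, 517 without arf2-6_IAA replicate 1 and 833 without arf2-6_IAA replicate 2. In these fits and all others tried, no probe set called in the first count was called in the opposite direction. Calls fell at every level of expression: in 3 equal groups of probe sets by control signal, the shares lower in arf2-6 were 7.56%, 5.44% and 6.85% from the dimmest to the brightest, and the shares higher were 3.18%, 2.74% and 4.50%.

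The direction of these differences was mostly shared with seedlings that had received no IAA. In the controls, which are different arrays, 1.31% of the probe sets differed between the genotypes at the same threshold. The control arrays also entered the estimate of the spread behind the calls. A small spread in controls favours a call and also a lack of overlap there, so the counts without overlap are not an independent check. Of the 869 probe sets lower with IAA, 814 also had a lower mean in arf2-6_control than in WT_control (44.3% of all probe sets tested did), 476 without overlap between the arrays (7.15% of all probe sets tested), and their median control difference was -0.34. Of the 456 higher with IAA, 451 had the same sign in controls (7312 of all 13130 were positive), 263 without overlap (7.62% of all), with a median of 0.39. Probe sets at the lowest value on all 6 control arrays have no control difference, and rounding can place them on either side in these sign counts. The genotype difference itself changed with IAA, as an interaction in the same limma fit, for 3 probe sets (0.0228% of those tested, against 406 at an unadjusted p under 0.05). These were IAA20, 260376_at and AT3G61930, the last described because of WT_IAA alone.

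Auxin-response genes differed in few cases. IAA20 encodes an Aux/IAA protein that lacks the degron through which auxin destabilises most of its family. It lay at 5.64, 5.64 and 5.68 in WT_IAA and at 7.45, 6.78 and 7.41 in arf2-6_IAA. All mutant arrays were far above all wild-type arrays, at least 2.94-fold (log2 difference 1.56 ± 0.15 SE, adjusted p = 0.00026). Its SD was 0.37 in arf2-6_IAA, against 0.02 in WT_IAA, 0.10 in arf2-6_control and 0 in WT_control. Arrays at the lowest value thus lower the shared SE and the p. In controls IAA20 was at the lowest value in all WT arrays and at 5.64 to 5.84 in arf2-6, so its signal was clear of the lowest value only in mutant seedlings with IAA (interaction 1.48, adjusted p = 0.040). The other 3 Aux/IAA genes tested did not pass: IAA29 differed by -0.04, IAA30 by 0.17 and IAA18 by 0.26.

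None of the 4 GH3 genes tested passed the threshold either in limma or at an unadjusted p under 0.05. Over all 13130 probe sets tested, 10.1% passed it and 3402 had such an unadjusted p. GH3.3 read 12.87, 12.82 and 12.34 in WT_IAA and 12.56, 12.61 and 12.62 in arf2-6_IAA, against 6.18 to 7.43 on the control arrays of both genotypes. The IAA-treated groups overlapped, with a difference of -0.08 ± 0.30 SE. GH3.1 and WES1 also overlapped between the genotypes, with differences of 0.18 ± 0.11 SE and 0.25 ± 0.34 SE. GH3.17 had a difference of -0.27, lower in arf2-6 without overlap, as 20.1% of all probe sets tested were.

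Factors of lateral root initiation were lower in the mutant. Of the 5 tested members of the list of LBD and lateral root factors, 3 were lower and none higher, with a median difference of -0.62, beside 6.62% lower and a median of 0.01 over all probe sets tested. The list also took in SHI and HAT2, which are not LBD genes and whose role in lateral roots was not checked. Its count and median therefore do not describe lateral root initiation alone. PUCHI, an AP2-type transcription factor of lateral root primordia, read 6.66, 6.79 and 6.53 in WT_IAA and 5.64, 5.85 and 5.87 in arf2-6_IAA. Every mutant array was below every wild-type array, at least 1.83-fold (log2 difference -0.87 ± 0.10 SE, adjusted p = 0.00056). LBD16, which acts in founder cells of lateral roots, read 7.98, 8.00 and 7.75 in WT_IAA and 7.37, 7.37 and 7.08 in arf2-6_IAA. That is 1.55-fold lower without overlap (adjusted p = 0.0065). LBD29 read 9.30, 9.11 and 8.93 against 8.12, 8.78 and 8.58, again without overlap and 1.54-fold lower (adjusted p = 0.025). PUCHI and LBD29 lay at the lowest value on all 6 control arrays, so a genotype difference in controls could not be measured for them. Those arrays show no spread, which lowers the SE and p of both genes. LBD29 lost its call when WT_IAA replicate 1 or 2, or arf2-6_IAA replicate 1 or 3, was left out (adjusted p up to 0.098), while PUCHI and LBD16 kept theirs under every alternative that tested them. HAT2, an auxin-induced homeodomain gene, differed by -0.33 ± 0.14 SE and did not pass.

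The other probe sets with a called interaction were 260376_at and AT3G61930. The probe set 260376_at, listed with no gene, read 5.71, 5.64 and 5.64 in WT_IAA and 6.99, 7.16 and 7.25 in arf2-6_IAA, and it was at the lowest value on all 6 control arrays. It was at least 2.77-fold higher in arf2-6 (adjusted p = 2.8e-06, interaction 1.47, adjusted p = 0.00042). Like IAA20, it was above the lowest value on 1 WT_IAA array, and only just. Both would have been described through arf2-6_IAA alone, so their p-values are given as values and are not taken as support. AT3G61930 showed the reverse: it read 6.65, 6.59 and 7.08 in WT_IAA and lay at the lowest value on the other 9 arrays, at least 2.19-fold lower in arf2-6_IAA. The interaction of 260376_at was called in all 21 alternatives that tested it and that of IAA20 in 7 of 21 (adjusted p up to 0.21).

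A pair of genes was at or near the lowest value in both control groups without a called interaction, so a dependence of their genotype difference on IAA was not shown. The peroxidase gene AT5G14130 read 7.24, 7.35 and 7.26 in WT_IAA and 5.99, 6.27 and 6.08 in arf2-6_IAA, 2.24-fold lower without overlap (adjusted p = 0.00034). Its control arrays lay at 5.64 to 5.98, and its interaction was -1.05 (adjusted p = 0.063). CLE44, which encodes a peptide that holds back xylem formation, was at the lowest value on all 6 control arrays and read 6.80, 6.87 and 6.76 in WT_IAA against 6.18, 6.35 and 6.45 in arf2-6_IAA. It was 1.40-fold lower without overlap (adjusted p = 0.0084), with an interaction of -0.48 (adjusted p = 0.86). It was the 1 of 3 tested vascular genes that passed, beside 10.1% of all probe sets tested.

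**Figure D2:**
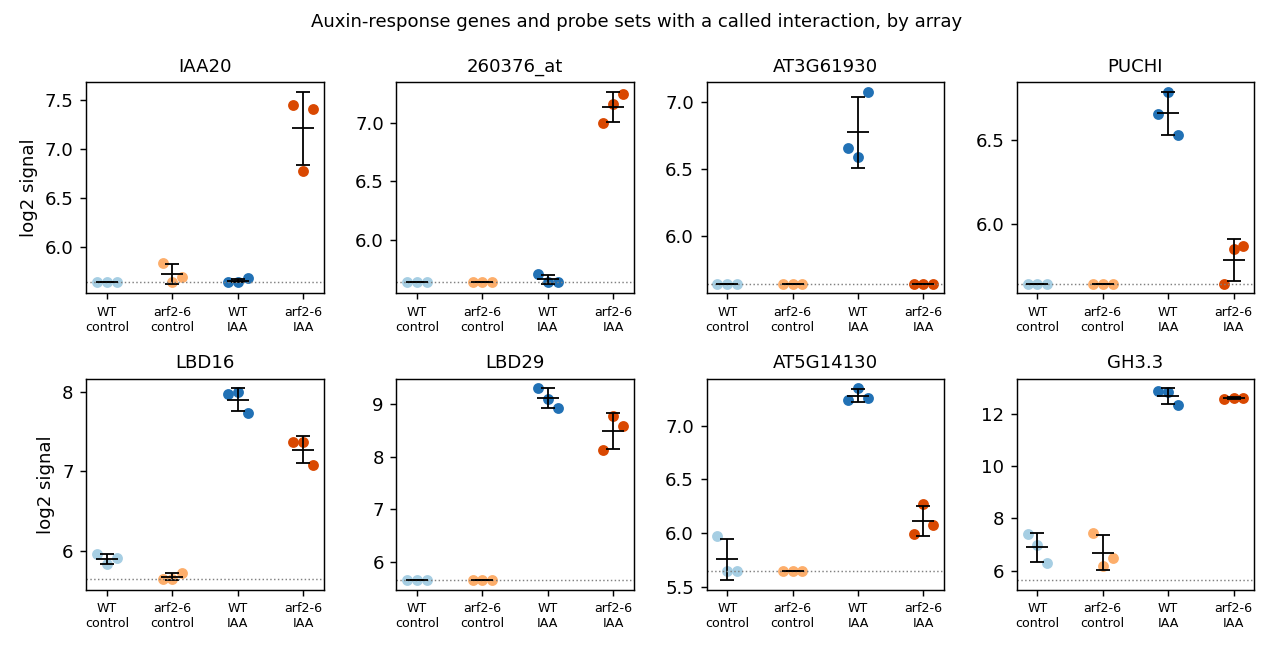
Log2 signal on each array (points), with group mean and SD (bars), for 5 auxin-response genes, the peroxidase gene AT5G14130 and the other probe sets with a called interaction in the 4 groups of 3 arrays; the dotted line is the lowest deposited value, 5.64, and vertical scales differ. IAA20 and 260376_at rise clear of that line only in arf2-6_IAA, AT3G61930 only in WT_IAA, and GH3.3 overlaps between the IAA-treated genotypes.

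Root hair genes were lower in the mutant. Of 7 tested genes of the list, 6 were lower in arf2-6 (6.62% of all probe sets tested were), none was higher, and the median difference was -1.32. The count includes AT1G34510 and XTH26, which were described because of WT_IAA alone; of the other 5, 4 were lower, with a median of -1.20, beside 6.32% of all probe sets tested once such probe sets are left out. The mean of the 7 was 7.85, 8.37 and 7.79 in WT_IAA and 6.73, 6.93 and 6.87 in arf2-6_IAA. In whole seedlings, fewer hair cells and less RNA per hair cell cannot be told apart. The count was 6 on the 6 IAA-treated arrays alone and without the 2 control arrays that stood apart, and 5 without WT_IAA replicate 2 or without arf2-6_IAA replicate 1. Among the 4 members above the lowest value on all 6 IAA-treated arrays, 3 were lower.

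EXPA18 and EXPA7 are the expansins, wall-loosening proteins, of the root hair. EXPA18 read 7.05, 7.91 and 7.20 in WT_IAA and 5.64, 5.98 and 5.92 in arf2-6_IAA, at least 2.91-fold lower without overlap (log2 difference -1.54 ± 0.24 SE, adjusted p = 0.0022). EXPA7 read 7.07, 7.52 and 6.86 against 6.04, 6.20 and 6.33, 1.95-fold lower without overlap (adjusted p = 0.011), and lost its call without WT_IAA replicate 2 or arf2-6_IAA replicate 1 (adjusted p up to 0.061). XTH26, a xyloglucan-modifying enzyme, read 6.60, 7.33 and 6.96 in WT_IAA and the lowest value throughout arf2-6_IAA. It was thus at least 2.49-fold lower. In controls its arrays were 7.59, 7.24 and 7.07 in WT and 6.35, 6.81 and 6.31 in arf2-6, so the mutant was lower there without overlap and above the lowest value, with a difference of -0.81 (adjusted p = 0.059).

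These were the 3 called genes of the wider list of expansins and xyloglucan enzymes, in which 3 of 19 tested were lower and none higher, with a median of -0.22. Without XTH26 this is 2 of 18, or 11.1%. The share lower over all probe sets tested was 6.62%, and 6.32% once probe sets described because of 1 genotype alone are left out. The call count of that list was 6 on the 6 IAA-treated arrays alone, 7 without the 2 control arrays that stood apart, and 5 without WT_control replicate 3 only; it was 2 without WT_IAA replicate 2 and 2 without arf2-6_IAA replicate 1. Among the members that did not pass, EXLA1 differed by -0.65 and EXLB1 by 0.26.

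Class III peroxidases, secreted enzymes that use hydrogen peroxide to cross-link or loosen the wall, were lower in 16 of 34 tested genes and higher in none. Their median difference was -0.48, and 29 of the 34 were below 0. Over all probe sets tested 6.62% were lower, the median was 0.01 and 6456 of 13130 were below 0. Without AT1G34510, described because of WT_IAA alone, 15 of 33 were lower, beside 6.32% of all once such probe sets are left out. Of the 16, 3 are also on the root hair list. AT1G34510 read 7.29, 8.01 and 6.77 in WT_IAA and was down at the lowest value in all of arf2-6_IAA, at least 3.28-fold lower. In controls, where every array was above the lowest value, it differed by -1.51 ± 0.31 SE (adjusted p = 0.038). AT1G30870 read 8.65, 9.19 and 8.59 against 7.30, 7.62 and 7.38, 2.60-fold lower (adjusted p = 0.0022), and AT4G26010 read 9.71, 10.18 and 9.61 against 8.36, 8.90 and 8.66, 2.29-fold lower (adjusted p = 0.0023). In each of these the genotypes were separated by a clear gap. AT5G19890, which is not on the root hair list, read 9.86, 9.72 and 9.35 in WT_IAA and 8.56, 8.54 and 7.78 in arf2-6_IAA, 2.55-fold lower (adjusted p = 0.0031). The count of lower peroxidases was 19 on the 6 IAA-treated arrays alone and 18 without the 2 control arrays, and it fell to 10 without WT_IAA replicate 2.

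Of 2 tested genes on the list of pectin-modifying enzymes 1 was lower, and of 2 tested extensin and proline-rich protein genes none passed in limma (1 at an unadjusted p under 0.05, and 1 was called without the 2 control arrays that stood apart). The share lower over all probe sets tested was 6.62%. A pair of other genes coding for secreted proteins, on neither list, was among the 20 largest falls. AT5G04960, a pectin methylesterase with an inhibitor domain, read 7.57, 8.18 and 7.77 in WT_IAA and 6.00, 6.25 and 6.02 in arf2-6_IAA, 3.37-fold lower (log2 difference -1.75 ± 0.32 SE, adjusted p = 0.0054). AT4G25790, of the family of cysteine-rich secretory CAP proteins, read 7.56, 8.31 and 7.85 against 6.46, 6.87 and 6.52, 2.44-fold lower (adjusted p = 0.0033). Neither gene overlapped between the genotypes. PMEPCRF, a pectin methylesterase and the 1 called gene of the pectin list, was 1.79-fold lower (adjusted p = 0.040) and lost its call without any 1 of the 6 IAA-treated arrays, without WT_control replicate 1 and with quantile normalization (adjusted p up to 0.19).

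**Figure D3:**
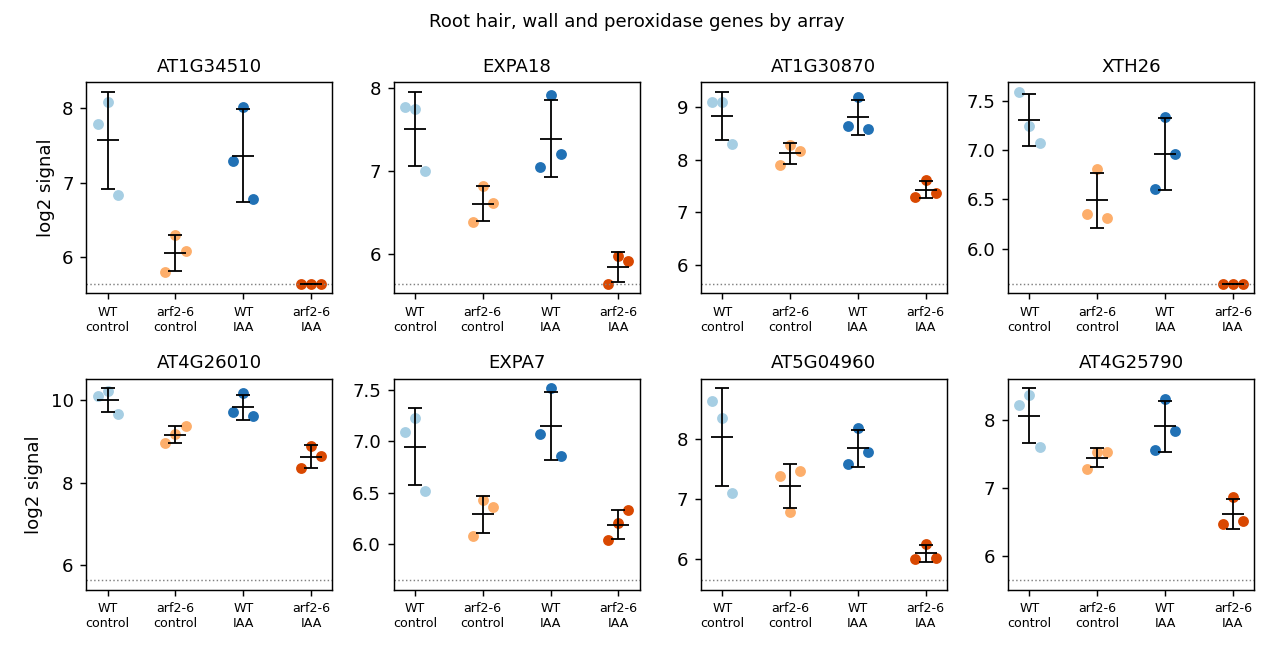
Log2 signal on each array (points), with group mean and SD (bars), for 6 root hair genes, the pectin methylesterase gene AT5G04960 and the CAP gene AT4G25790 in the 4 groups of 3 arrays; the dotted line is the lowest deposited value and vertical scales differ. In every panel the 3 arf2-6_IAA arrays lie below the 3 WT_IAA arrays, and AT1G34510 and XTH26 reach the lowest value on all 3.

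Several of the 20 largest falls were members of lists with few other calls. For the counts below, 6.62% of all probe sets tested were lower and 3.47% higher. AT1G14960, a major latex protein-like gene, read 8.83, 9.05 and 8.49 in WT_IAA and 5.74, 6.99 and 6.92 in arf2-6_IAA, 4.72-fold lower (log2 difference -2.24 ± 0.30 SE, adjusted p = 0.00094). In its family of 6 tested genes 2 were lower and none higher, with a median of -0.38 (4 lower on the 6 IAA-treated arrays alone). AT5G38030, a MATE-type efflux carrier, read 7.59, 7.87 and 7.62 against 5.64, 6.16 and 5.94, at least 3.43-fold lower (adjusted p = 0.00037). It was the 1 called gene of 14 MATE genes tested, whose median was 0.13; without the 2 control arrays 2 were lower and 1 higher. AT3G45710, a nitrate and peptide transporter of the nitrate excretion subgroup, read 8.46, 8.78 and 8.44 against 6.79, 7.20 and 7.18, 2.84-fold lower (adjusted p = 0.0020). AT2G26690 of the same large family went the other way, with 8.68, 8.45 and 8.34 in WT_IAA and 9.22, 9.20 and 9.32 in arf2-6_IAA, 1.69-fold higher (adjusted p = 0.0033). Of 7 tested members of that family, 2 were lower and 1 higher, and without the 2 control arrays 3 and 1.

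Sugar carriers were lower in 3 of 9 tested genes, beside 6.62% of all probe sets tested. SWEET16 and SWEET17, carriers of the vacuole membrane, were 2.09-fold (adjusted p = 0.020) and 1.58-fold lower (adjusted p = 0.0091). SWEET17 read 7.52, 7.65 and 7.41 in WT_IAA and 6.69, 7.09 and 6.80 in arf2-6_IAA, without overlap. SFP1, a sugar transporter-like gene, was 1.42-fold lower (adjusted p = 0.032). Each of these 3 calls was lost without WT_IAA replicate 2, those of SWEET16 and SFP1 also without WT_IAA replicate 1 or arf2-6_IAA replicate 1, and that of SFP1 also without WT_IAA replicate 3 or arf2-6_IAA replicate 2 (adjusted p up to 0.12).

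Both tested genes of the root triterpene clusters were lower, beside 6.62% of all probe sets tested. AT5G47980 and AT5G47950 encode acyltransferases of the BAHD family at the thalianol cluster. AT5G47980 read 8.19, 8.54 and 7.52 in WT_IAA and 5.98, 6.90 and 6.73 in arf2-6_IAA, 2.92-fold lower (adjusted p = 0.033). AT5G47950 read 6.87, 7.12 and 6.74 against 5.64, 5.85 and 6.08, at least 2.07-fold lower (adjusted p = 0.0085). The groups did not overlap in either gene, but both calls were lost without WT_IAA replicate 2, and that of AT5G47980 also without WT_IAA replicate 1 or any 1 of the arf2-6_IAA arrays (adjusted p up to 0.15).

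Of 26 UDP-glycosyltransferases tested, which attach sugars to small molecules, 4 were lower and 1 higher, with a median of -0.26 and 21 below 0. Beside the counts in this paragraph, 6.62% of all probe sets tested were lower and 3.47% higher, and 6456 of 13130 were below 0. Without UGT84A3, described because of WT_IAA alone, this is 3 of 25 lower, beside 6.32% of all once such probe sets are left out. UGT76D1 read 6.20, 6.64 and 6.46 in WT_IAA and 5.64, 5.66 and 5.64 in arf2-6_IAA, at least 1.72-fold lower (adjusted p = 0.00094). It was only just above the lowest value on 1 arf2-6_IAA array and lay at that value in both control groups. WT_IAA alone would have had it described, so its p is given as a value and is not taken as support. UGT76C2, which glucosylates cytokinins, was the member that was higher, 1.51-fold (adjusted p = 0.011), a call lost without WT_IAA replicate 2 or arf2-6_IAA replicate 3 (adjusted p up to 0.066). The count of lower members was 9 on the 6 IAA-treated arrays alone, 9 without the 2 control arrays, 6 without WT_control replicate 3 only, 1 without WT_IAA replicate 2 and 2 without arf2-6_IAA replicate 3. Of 10 glutathione S-transferases tested, 2 were lower and none higher, with a median of -0.01 and 5 above 0. Without GSTU26, described because of WT_IAA alone, 1 of 9 was lower. GSTU26 read 6.90, 6.86 and 6.41 in WT_IAA and the lowest value throughout arf2-6_IAA, at least 2.12-fold lower. In controls it was measured on every array, at 8.04, 8.37 and 8.05 in WT and 7.02, 7.34 and 7.26 in arf2-6, a difference of -0.94 (adjusted p = 0.013). The other called member, GSTU27, was 1.34-fold lower (adjusted p = 0.046) and lost its call in 12 alternatives, among them those without any 1 of the 6 IAA-treated arrays (adjusted p up to 0.17). Of 7 cytochrome P450 genes tested 2 were lower and none higher, with a median of -0.06, and 3 were lower without the 2 control arrays. CYP71B23 was at least 2.30-fold lower (adjusted p = 0.00094), and CYP718 was 1.69-fold lower (adjusted p = 0.035), a call lost without any 1 of the 6 IAA-treated arrays (adjusted p up to 0.13). CYP71B23 was above the lowest value on 1 arf2-6_IAA array, at 5.71, so its p too is not taken as support.

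Of 11 tested genes on the glucosinolate list, 3 were lower and 1 higher, beside 6.62% and 3.47% of all probe sets tested. Their median was -0.24, and without WT_IAA replicate 2 or arf2-6_IAA replicate 3 the counts were 1 and 0. Apart from BCAT4 and UGT74B1 the members are beta-glucosidases, whose role with glucosinolates was not checked. The count and median therefore do not describe glucosinolate synthesis. BCAT4, an aminotransferase that starts the lengthening of methionine for these defence compounds, read 11.05, 11.01 and 10.89 in WT_IAA and 10.51, 10.45 and 10.42 in arf2-6_IAA. It was 1.44-fold lower without overlap (adjusted p = 0.0049). UGT74B1, a glucosyltransferase of the core pathway, was 1.45-fold lower (adjusted p = 0.013), which failed without WT_IAA replicate 2 or arf2-6_IAA replicate 3 (adjusted p up to 0.071). The other calls were of beta-glucosidase genes. BGLU25 was 1.45-fold lower (adjusted p = 0.022) and BGLU42 1.46-fold higher (adjusted p = 0.026), and they were lost in 4 and 5 of the alternatives that leave out 1 IAA-treated array (adjusted p up to 0.11 and 0.12).

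Defence-related genes moved in both directions. The chitinase family gene AT2G43590 read 8.82, 8.71 and 8.59 in WT_IAA and 9.79, 9.46 and 9.85 in arf2-6_IAA, 1.99-fold higher (adjusted p = 0.00096). AT2G43620 of the same family read 9.27, 9.78 and 9.02 against 7.52, 8.67 and 7.65, 2.66-fold lower (adjusted p = 0.028), a call lost without WT_IAA replicate 1 or 2 or arf2-6_IAA replicate 1 or 3 (adjusted p up to 0.13). The pair thus separated the genotypes in opposite directions, without overlap in either. LCR69, a defensin-like gene, was 1.51-fold higher (adjusted p = 0.0075). Of 11 pathogen response genes tested, 2 were higher and 2 lower, beside 3.47% and 6.62% of all probe sets tested. The lower genes, PR-1-LIKE at 1.77-fold (adjusted p = 0.014) and WRKY47 at 1.59-fold (adjusted p = 0.022), both lost their calls without WT_IAA replicate 2 or arf2-6_IAA replicate 1, and WRKY47 also without WT_IAA replicate 3 or arf2-6_IAA replicate 3 (adjusted p up to 0.11).

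Lectins, which bind carbohydrates, were likewise split. Of 13 tested, 3 were lower and 2 higher, beside 6.62% and 3.47% of all probe sets tested, with a median of -0.04. The lower count was 6 on the 6 IAA-treated arrays alone, 5 without the 2 control arrays (with 3 higher) and 5 without WT_control replicate 2. AT2G25980, 1.27-fold lower (adjusted p = 0.044), lost its call in 10 alternatives, among them quantile normalization (adjusted p up to 0.19). AT5G35940, a jacalin-type lectin, read 7.14, 7.06 and 6.89 in WT_IAA and 5.64, 5.72 and 5.64 in arf2-6_IAA, at least 2.57-fold lower (adjusted p = 0.00056). It was above the lowest value on 1 arf2-6_IAA array, and only just, so this p is not taken as support. In controls, where all arrays were above the lowest value, it differed by -1.65 (adjusted p = 0.00032). The jacalin-type genes AT1G33790 and AT1G52100 were 1.67-fold and 1.50-fold higher (adjusted p = 0.018 and 0.013). Both lost their calls without WT_IAA replicate 2 or arf2-6_IAA replicate 1 or 3, and AT1G33790 also without WT_IAA replicate 3 or arf2-6_IAA replicate 2 (adjusted p up to 0.079).

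Among 13 lipid transfer proteins tested, 4 were lower (6.62% of all probe sets tested were) and none higher, with a median of -0.19. The lower count was 5 without the 2 control arrays, and 1 without WT_IAA replicate 1, WT_IAA replicate 2, arf2-6_IAA replicate 1 or arf2-6_IAA replicate 3. AT1G62510 (1.97-fold, adjusted p = 0.049) lost its call in 14 alternatives, AT3G18280 (1.52-fold, adjusted p = 0.047) in 12 and AT4G22470 (1.48-fold, adjusted p = 0.040) in 5 (adjusted p up to 0.22). AT3G22570, the member whose call was lost in none of them, read 8.67, 9.07 and 8.69 in WT_IAA and 6.77, 7.74 and 7.45 in arf2-6_IAA, 2.81-fold lower (adjusted p = 0.0017). AT5G23840, with a lipid-recognition domain, read 9.69, 9.87 and 9.79 against 7.40, 8.24 and 8.36, 3.45-fold lower (adjusted p = 0.0033). AT1G66800, similar to cinnamyl-alcohol dehydrogenases, read 7.83, 7.99 and 7.78 against 5.64, 6.36 and 6.26, at least 3.43-fold lower (adjusted p = 0.00094). In all 3 genes arf2-6_IAA replicate 1 was the lowest array and no mutant array reached the wild type. AT5G40590 and AT5G43520, both of the cysteine- and histidine-rich C1 domain family, were 2.89-fold (adjusted p = 0.00060) and 2.58-fold lower (adjusted p = 0.0013).

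**Figure D4:**
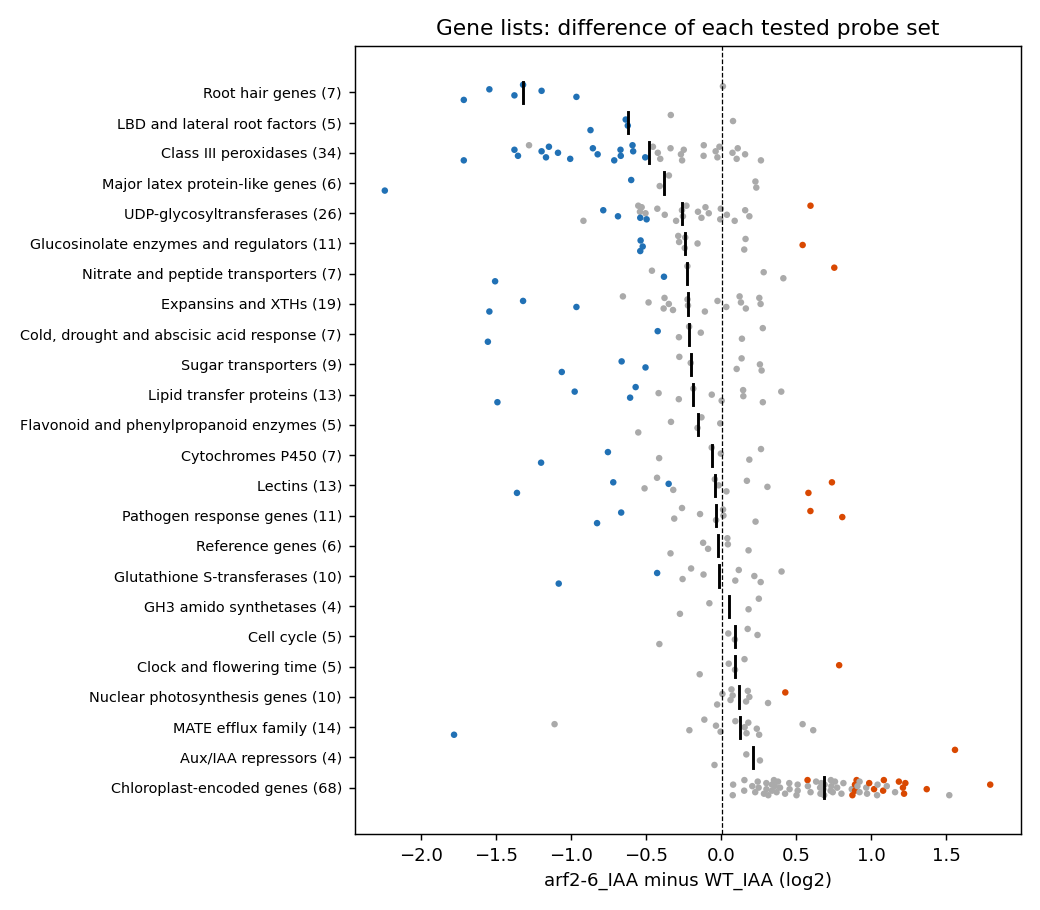
Difference in log2 signal, arf2-6_IAA minus WT_IAA, of every tested probe set of the lists with at least 4 tested members (number tested in brackets); blue and orange points were called lower and higher, black bars are list medians and the dashed line is the median of all 13130, 0.01. Root hair genes have the lowest list median shown, -1.32, and chloroplast-encoded genes the highest, 0.69.

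Transcripts of the chloroplast genome were higher in arf2-6. All 68 tested probe sets listed with a chloroplast-encoded gene had a positive difference, with a median of 0.69, and 51 separated the genotypes without overlap (19.3% of all probe sets tested did so in this direction). Of the 68, 15 passed the threshold, none was lower, and 49 had an unadjusted p under 0.05. Among all 13130 tested, 3.47% were higher, 6674 had a positive difference and 3402 had an unadjusted p under 0.05 in either direction. The mean over the 68 was 8.90, 9.25 and 9.00 in WT_IAA and 9.58, 9.69 and 9.98 in arf2-6_IAA. In controls 67 of the 68 were also positive, with a median of 0.49. The genes lie on 1 circular genome and share transcripts, so their counts are not those of independent genes.

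Nuclear genes of photosynthesis, which mark leaf tissue, had small positive differences. Their mean over 10 genes was 11.57, 11.53 and 11.46 in WT_IAA and 11.71, 11.64 and 11.66 in arf2-6_IAA, so the mutant arrays were above the wild type by less than for the chloroplast genome. The median difference was 0.12, with 9 of 10 above 0 and 1 called higher, beside 3.47% of all probe sets tested. That gene, ATPC1, a subunit of the chloroplast ATP synthase, read 11.78, 11.63 and 11.55 against 11.94, 12.08 and 12.22. It was 1.34-fold higher (adjusted p = 0.018), a call lost without WT_IAA replicate 2 or 3 or arf2-6_IAA replicate 2 or 3 (adjusted p up to 0.093). Whether the leaf share of the seedlings or the RNA length had a part in the chloroplast result was not tested.

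Within the chloroplast genome every functional group had a positive median difference, and each held called genes except the ATP synthase. psbB, a core antenna protein of photosystem II, read 8.45, 9.01 and 8.61 in WT_IAA and 9.70, 10.11 and 10.37 in arf2-6_IAA, 2.58-fold higher (log2 difference 1.37 ± 0.26 SE, adjusted p = 0.0070). psaC, an iron-sulphur protein of photosystem I, read 7.62, 7.62 and 7.55 against 8.45, 8.76 and 9.13, 2.27-fold higher (adjusted p = 0.0073). petG, a small subunit of the cytochrome b6f complex, gave the largest difference, from 6.51, 6.40 and 6.56 to 7.26, 8.60 and 8.98 (3.46-fold, adjusted p = 0.023). The mutant arrays of petG spread widely, and all lay above the wild type. rbcL, the large subunit of Rubisco, read 7.03, 7.78 and 7.70 against 8.79, 8.55 and 8.86, 2.34-fold higher (adjusted p = 0.047). By group, the median difference was 1.04 for 5 photosystem I genes, 0.38 for 15 photosystem II genes, 0.58 for 6 cytochrome b6f genes, 0.56 for 6 ATP synthase genes, 0.67 for 9 genes of the NADH dehydrogenase-like complex, 0.76 for 15 ribosomal proteins and 0.73 for 4 RNA polymerase genes.

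The spread of these transcripts was wide, with a median SE of 0.26 against 0.14 over all probe sets. The count of 15 moved strongly with the arrays used. It was 47 on the 6 IAA-treated arrays alone and 36 without the 2 control arrays that stood apart. It was 2 without arf2-6_IAA replicate 3, 5 without WT_IAA replicate 3, 6 without WT_IAA replicate 1 and 8 without arf2-6_IAA replicate 1 or 2, and it was 27 without arf2-6_control replicate 2 and 23 without arf2-6_control replicate 3. The calls of petG and rbcL were each lost in several of these fits (adjusted p up to 0.12 and 0.16), and those of psbB and psaC in none.

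**Figure D5:**
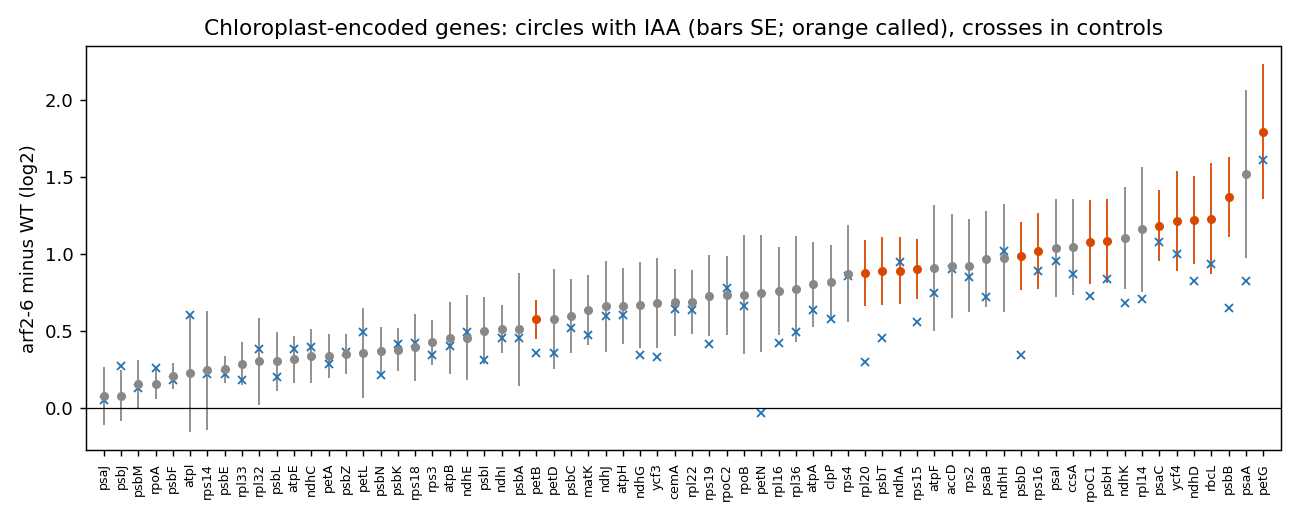
Genotype difference in log2 signal for 68 chloroplast-encoded genes, ordered by the difference with IAA (circles, arf2-6_IAA minus WT_IAA, bars 1 SE, orange where called) and with the control difference beside it (crosses, arf2-6_control minus WT_control). All circles lie above 0, from 0.08 to 1.79, and 67 of the 68 crosses do.

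Among nuclear genes that rose, several stood beside each other on chromosome 5. In gene order, 7 tested neighbours in a row, from AT5G62130 to AT5G62200, were all higher at the threshold, with AT5G62130 and AT5G62140 described because of arf2-6_IAA alone, and by locus number this stretch is near ARF2, AT5G62000. It was 1 of 3 runs of 3 or more neighbouring tested genes called in 1 direction, among 6847 genes placed in order. PRH75, a DEAD-box RNA helicase, read 9.33, 9.02 and 9.19 in WT_IAA and 10.48, 10.40 and 10.75 in arf2-6_IAA, 2.58-fold higher (adjusted p = 0.0080). TRM25 read 5.64, 5.64 and 5.75 against 6.91, 6.49 and 6.47, at least 1.92-fold higher (adjusted p = 0.00094). It was above the lowest value on 1 WT_IAA array, and only just, so its p is not taken as support. AT5G62150, a LysM-domain gene, was at least 1.75-fold higher (adjusted p = 0.0054) and AT5G62200 was 1.55-fold higher (adjusted p = 0.0050).

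AT5G62130 and AT5G62140 in the same run lay at the lowest value on all WT_IAA arrays and were at least 1.38-fold and 1.63-fold higher. In controls they differed by 1.10 and 1.29 (adjusted p = 0.00074 and 0.0043). CXE20, a carboxylesterase, was 1.41-fold higher (adjusted p = 0.043). The call of CXE20 was lost in 8 alternatives, among them those without any 1 of the 6 IAA-treated arrays (adjusted p up to 0.14), so the unbroken run rests on all 6 of those arrays. The other runs were the lower trios AT2G16750, AT2G16760 and AT2G16790, and AT2G47540, AT2G47550 and AT2G47560. Of these 6 genes AT2G47560, which encodes a RING-type ubiquitin ligase, was the one that kept its call under every alternative that tested it (1.64-fold lower, adjusted p = 0.0014).

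Other large rises were single genes. The probe set 247508_at, listed with no gene, read 8.49, 8.55 and 8.53 in WT_IAA and 10.69, 10.72 and 10.66 in arf2-6_IAA, 4.48-fold higher (adjusted p = 0.0022), the 1 rise past 4-fold. The other large rise with no gene listed, 250868_at, read 5.64, 6.86 and 5.64 against 7.85, 7.72 and 8.26, at least 3.72-fold higher (adjusted p = 0.0057). AT2G47780, similar to rubber particle proteins, read 5.97, 6.36 and 6.21 against 7.70, 7.13 and 7.81, 2.57-fold higher (adjusted p = 0.00060). AT1G67910 read 8.45, 8.02 and 8.20 against 9.46, 9.28 and 9.42, 2.24-fold higher (adjusted p = 0.00067). In these 3 the genotypes were well apart, though the mutant arrays of AT2G47780 had an SD of 0.36 against a median of 0.11 over all probe sets in arf2-6_IAA. AT5G24490, a putative ribosomal protein of the plastid encoded in the nucleus, read 10.12, 9.69 and 9.97 against 10.80, 10.86 and 11.20, 2.04-fold higher (adjusted p = 0.0011). AT1G33170, a putative methyltransferase, was at least 2.06-fold higher (adjusted p = 0.0081).

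Some transcripts were above the lowest value in 1 genotype only. On all 3 WT_IAA arrays and no arf2-6_IAA array this held for 126 probe sets, of which 51 were called and 12 reached 2-fold. The reverse held for 65, of which 15 were called and 1 reached 2-fold. Such probe sets had to differ, so these counts describe the arrays and support nothing. On the control arrays the same split of 3 against 0 recurred for 6 of the 126 and 4 of the 65, the opposite split for none, and 41 of the 126 were above the lowest value on all 6 control arrays. At the edge of the description, 292 probe sets were above the lowest value on exactly 3 of the 6 arrays, and the median of their highest array was 6.02. On exactly 2 arrays, and so left out, were 283, with a median highest array of 5.85.

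Several lists held no called gene, while 10.1% of all probe sets tested were called. Of all 13130, 3402 had an unadjusted p under 0.05. None of the 6 reference genes tested passed, the nearest being AT4G34270 at -0.34 (adjusted p = 0.075), and 1 of the 6 had an unadjusted p under 0.05. Cell cycle genes gave 0 of 5 calls in limma (1 at an unadjusted p under 0.05) and ethylene genes 0 of 2 (none unadjusted). Gibberellin and brassinosteroid genes gave 0 of 2 (none), and senescence and abscission genes 0 of 2 (1). The list of iron, phosphate and sulphur supply gave 0 of 3 (none). It took in FRO1 (AT5G67590) and APK1A (AT1G07570), loci not known for nutrient supply, so its count does not describe that process. Without the 2 control arrays that stood apart, 1 reference gene and 1 cell cycle gene were called lower. These lists are short, and a p that misses the threshold does not show that the genotypes were alike in them.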

How the data were processed

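Total RNA of 12 seedling samples was measured on 1 array each. The authors deposited log2 signals, 1 per probe set and array, already processed, with a lowest value of 5.64. Their summary and scaling steps are not given in the sources used here. Groups and replicate numbers came from the sample titles.

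Probe sets above the lowest value on at least 3 of the 6 IAA-treated arrays were fitted in limma 3.58.1 (R 4.3.3) with 1 mean per group over all 12 arrays (8 residual degrees of freedom), moderated variances with a trend and Benjamini-Hochberg adjustment over 13130 probe sets. The contrast was arf2-6_IAA minus WT_IAA, with the control difference and the interaction from the same fit. The code was tested on simulated data.

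Genes came from the platform annotation: 7010 of the probe sets had 1 gene, 264 several and 5856 none, and 6984 of the 7010 were found in the RefSeq gene table. Roles of genes listed only by locus code are background. The rule for names took the 20 largest non-overlapping single-gene rises and falls, up to 5 such called members per list (or, with none called, that of lowest p), the 2 largest of each direction with no gene, and, added later, genes called in the interaction or in runs of neighbours; the text describes those of them that the results turn on; members that missed the threshold are named in lists as values, chosen after they were seen. The comparison, lists and rule were chosen with earlier results of these data known, and several lists were completed by locus code after the files were read. The list for Casparian strip and suberin matched no single-gene probe set, promoter sequences were not analysed here, and 1 root hair gene is not reported here. Alternatives left out arrays, changed scaling, filter and variance prior, or weighted arrays.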

Additional observations from a re-analysis of the deposited data

Results flagged for a closer look

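For 3 probe sets the genotype difference with IAA itself differed from that in controls, by the interaction term in limma. The interaction was -1.13 for AT3G61930, 1.47 for 260376_at (adjusted p = 0.00042) and 1.48 for IAA20 (adjusted p = 0.040), each from 3 arrays a group. AT3G61930 was described because of WT_IAA alone, so its value supports nothing. Both control groups of AT3G61930 and 260376_at lay at the lowest deposited value, so their interactions are fitted values against groups that were not measured above that value. In each of the 3, all arrays of the higher genotype with IAA lay above all others.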

How the results depend on the processing

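The 1325 calls became 2518 on the 6 IAA-treated arrays alone, 2449 without both control arrays that stood apart and 3207 with array weights. Higher calls (456) became 1129, 1086 and 1432 there, and lower calls (869) became 1389, 1363 and 1775. Leaving out 1 array gave 379 to 1679 calls in all, 85 to 660 higher and 294 to 1019 lower. The share of calls that were higher was 34.4% over 12 arrays and 44.8% on the 6 alone; with quantile normalization it was 39.0%, and with a common median 36.2%. Interaction calls (3) became 1 without both control arrays, 1 with a constant variance prior, 8 with the filter at 1 of 6 arrays and 0 with the filter at all 6 in limma (319 at an unadjusted p under 0.05), a filter that tests none of the 3; leaving out 1 array gave 1 to 8. The difference in 3′ minus 5′ signal ranged from -0.13 to -0.07 without 1 array.

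Same-numbered arrays of the genotypes did not deviate together (correlations of -0.25, 0.21 and -0.06 with IAA). Control and IAA arrays of 1 genotype with the same number correlated at -0.08, 0.32 and 0.49 in WT and 0.29, 0.03 and 0.30 in arf2-6, not all above 0.1, so the numbers were not taken as pairs. With the replicate number as a block, calls were 1335 on 12 arrays, with 1 interaction call, and 2288 on the 6 arrays (1027 higher and 1261 lower). With the number as a block within each genotype, added after seeing the data, interaction calls were 2.

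Of the 99 called genes named by the rule, 49 kept their calls under all alternatives that tested them and 50 lost them under at least 1. Losses were most frequent, 43, without WT_IAA replicate 2, and 0 on the 6 arrays alone, without both control arrays or with array weights. AT3G13610, which did not pass at -0.24, ranged without 1 array from -0.456 to 0.019, the latter without WT_IAA replicate 1. Signals below the lowest deposited value cannot be compared, which limits every fold marked as at least.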

Other observations

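Some further values, picked after they were seen, belong to gene groups not described above. Of 7 tested genes of cold, drought and abscisic acid response, 2 were lower in arf2-6 with IAA and none higher. The share lower over all probe sets tested was 6.62%. COR47, a dehydrin, read 10.32, 10.29 and 10.25 in WT_IAA and 9.68, 9.94 and 9.96 in arf2-6_IAA, 1.34-fold lower (limma adjusted p = 0.032), a call lost without any 1 of the 6 IAA-treated arrays and with a common median (adjusted p up to 0.13). STZ, a zinc finger repressor induced by stress, read 8.78, 8.96 and 7.07 against 6.33, 7.12 and 6.69, 2.93-fold lower (adjusted p = 0.030), and its groups overlapped because WT_IAA replicate 3 lay among the mutant arrays. That call was lost without WT_IAA replicate 1 or 2 or arf2-6_IAA replicate 1 or 3 (adjusted p up to 0.15). AGL87, a MADS-box gene, read 6.01, 5.64 and 6.15 against 7.00, 6.46 and 6.70, at least 1.72-fold higher (adjusted p = 0.014), and lost its call without WT_IAA replicate 2 or arf2-6_IAA replicate 1 or 3 (adjusted p up to 0.080). It was the 1 of 5 tested clock and flowering genes that passed, beside 10.1% of all probe sets tested.

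Among transcripts above the lowest value with IAA only in wild type, AT3G29410, a terpene synthase-like gene, read 6.68, 6.56 and 6.50 in WT_IAA and was at least 1.92-fold higher there than in arf2-6_IAA. On the control arrays it was measured in both genotypes, at 7.55, 7.59 and 7.41 in WT and 6.44, 6.99 and 6.35 in arf2-6, a difference of -0.92 (limma adjusted p = 0.014). AT5G38020, a methyltransferase of the family that modifies small acids, read 7.14, 7.31 and 6.35 in WT_IAA, at least 2.44-fold above arf2-6_IAA. On the control arrays it read 6.79, 7.70 and 6.69 in WT against 5.79, 6.33 and 6.07 in arf2-6, a difference that did not pass (adjusted p = 0.087). In both genes the mutant was thus lower in controls without overlap while still above the lowest value.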
